A study of Mus musculus with 8 samples.

Results

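Hyaluronidases are the enzymes that cut hyaluronan, and 5 genes of this family, Spam1, Hyal1, Hyal2, Hyal3 and Hyal5, were followed from spermatocytes to spermatids of the mouse. They were chosen by gene symbol in the deposited table, and all 5 were found among its 56324 gene models. Spam1, Hyal2, Hyal3 and Hyal5 each had a row of their own, while Hyal1 stood in a joint row named Hyal1 // Nat6, whose reads cannot be assigned to Hyal1 or to Nat6 (now called Naa80, an acetyltransferase of actin). The libraries were of polyadenylated RNA from germ cells separated by size through sedimentation at unit gravity (Sta-put). The 2 groups were spermatocytes, the cells in meiosis (4 libraries), and spermatids, the haploid cells that follow (4 libraries). Every library of both groups was labelled Sam68 -/-, strain C57BL/6, from male mice of 12 weeks. Sam68 is an RNA-binding protein encoded by Khdrbs1, and no library of another genotype was used, so each result below describes the 2 cell types under this label and makes no comparison of genotypes. The labels do not state whether libraries come from separate animals, and p-values therefore reflect a spread between samples that may be technical.

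Hyaluronan is a long unbranched sugar polymer that fills the matrix between the cumulus cells around the ovulated egg, and sperm carry hyaluronidases with which they loosen it. The proteins of Spam1 and Hyal5 are held on mouse sperm by a glycosylphosphatidylinositol (GPI) anchor, a lipid that fixes a protein to the outer face of the membrane. HYAL1 is the hyaluronidase of lysosomes, HYAL2 is a GPI-anchored enzyme of the surface of many somatic cells, and HYAL3 is a relative whose own activity is less clear. In the mouse, Spam1 and Hyal5 lie together with Hyal6 and Hyal4 on chromosome 6, and Hyal2, Hyal1 and Hyal3 lie together on chromosome 9.

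The letters before the gene starts are shown first for Spam1, Hyal5 and Hyal6, because these chromosome 6 neighbours differed in how their RNA changed (values below). Each window holds the 250 bases before the start of the RefSeq gene (build GRCm38.p6, plus strand). Spam1 is at chr6:24790938-24791187, Hyal5 at chr6:24857747-24857996 and Hyal6 at chr6:24732995-24733244. Capitals mark, in Spam1 and Hyal5, the longest run of letters that both share and, in Hyal6, the letters CCAAT on either strand.
Spam1: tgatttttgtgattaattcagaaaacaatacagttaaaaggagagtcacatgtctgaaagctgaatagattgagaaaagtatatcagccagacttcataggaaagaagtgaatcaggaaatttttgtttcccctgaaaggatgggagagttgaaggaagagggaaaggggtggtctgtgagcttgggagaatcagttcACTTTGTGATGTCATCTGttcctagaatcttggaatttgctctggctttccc
Hyal5: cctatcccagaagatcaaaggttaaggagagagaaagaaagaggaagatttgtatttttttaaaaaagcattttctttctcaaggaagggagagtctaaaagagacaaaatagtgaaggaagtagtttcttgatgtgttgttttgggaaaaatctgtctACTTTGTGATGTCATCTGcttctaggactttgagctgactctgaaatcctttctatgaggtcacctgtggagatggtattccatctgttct
Hyal6: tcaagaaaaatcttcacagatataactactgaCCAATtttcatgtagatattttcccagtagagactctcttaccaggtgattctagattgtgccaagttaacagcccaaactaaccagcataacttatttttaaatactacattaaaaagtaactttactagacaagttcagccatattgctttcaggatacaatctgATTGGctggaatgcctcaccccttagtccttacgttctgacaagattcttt
The shared run is ACTTTGTGATGTCATCTG, of 18 bases, and it begins 52 bases before the start in Spam1 and 91 bases before it in Hyal5. Of 32851 RefSeq windows of 250 bases, 2 held it, those of Spam1 and Hyal5. The longest run shared by any other pair among the windows of Spam1, Hyal5, Hyal6, Hyal1, Hyal2 and Hyal3 was 9 bases. With the 18 bases laid on each other, 37.4% of the 211 overlapping bases of the Spam1 and Hyal5 windows were identical.

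Within the run stand the letters TGATGTCA, which differ from the cAMP response element TGACGTCA in a single base. These letters were searched for only after the windows had been read, and 2.93% of all windows held them on either strand. The cAMP response element itself (TGACGTCA, in 1.55% of windows), its part TGACG (17.8%), a TATA box (TATAAA, 12.4%), a CCAAT box (CCAAT, 33.8%) and a GC box (GGGCGG, 32.7%) had no match on either strand in the windows of Spam1 and Hyal5. The Hyal6 window had 2 CCAAT matches, the Hyal1 window 1 CCAAT and 2 overlapping GC box matches, and the windows of Hyal2 and Hyal3 1 GC box match each. GC content was 39.6% in the Spam1 window, 37.2% in the Hyal5 window and 35.6% in the Hyal6 window, against 56.0%, 55.6% and 56.8% for Hyal1, Hyal2 and Hyal3 and a median of 52.4% over all windows. A match of letters is a description and not a site in use.

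The coding sequences of Spam1 and Hyal5 were alike in 69.1% of 1535 aligned bases, against 53.3 to 61.3% for the other pairs among 7 hyaluronidase-family genes (GENCODE M21). The most alike stretch of 120 coding bases is shown, since reads from such places could be given to the wrong gene. It runs from coding base 393 to 512 in exon 2 of 4 in both genes, at chr6:24796444-24796563 in Spam1 and chr6:24876522-24876641 in Hyal5 (mm10, plus strand), and capitals mark the 20 bases that differ.
Spam1: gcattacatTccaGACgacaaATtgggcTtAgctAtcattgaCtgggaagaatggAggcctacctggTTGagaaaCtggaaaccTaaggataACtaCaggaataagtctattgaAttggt
Hyal5: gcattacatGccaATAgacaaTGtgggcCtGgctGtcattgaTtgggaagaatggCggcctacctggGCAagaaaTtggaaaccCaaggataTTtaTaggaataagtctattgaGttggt
The longest stretch with no difference between the transcripts of Spam1 and Hyal5 was 31 bases, and none of the 2021 windows of 50 bases in the Hyal5 transcript was found in that of Spam1. Hyal1 and Hyal3 differ from this: their transcripts shared 72 windows of 50 bases, and 159 bases of exon, 8.16% of the merged exons of Hyal3, lie on the genome inside exons of Hyal1 or Naa80.

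Library depth, cell type markers and the gene of Sam68 were checked before the results. Values are normalized counts, that is, reads divided by a size factor of the library. Read totals were 49000266 to 78060212 for spermatocytes and 60673309 to 93975960 for spermatids, and 3 reads correspond to 2.42 to 4.50 normalized counts. Of 9 spermatid markers, all 9 were called higher in spermatids (summed 17814 to 33264 per spermatocyte library and 501560 to 602742 per spermatid library), and of 9 spermatocyte markers 3 were called lower and none higher. By the rule for calls given below, 32.5% of all tested models were called higher in spermatids and 29.8% lower. Markers of other testis cells also differed. All 13 Sertoli cell markers were lower in spermatids (summed 38451 to 188181 per spermatocyte library, the highest in library 3, and 3761 to 9353 per spermatid library), as were 6 of 7 Leydig cell markers (5177 to 9295 and 2218 to 2578). Of 14 macrophage and blood markers 10 were tested and 8 were higher in spermatids (842 to 3305 and 3595 to 7195), with Hba-a2 at 0 in all 8 libraries, and 4 of 5 peritubular markers were higher too (611 to 1115 and 970 to 1977). Most of the macrophage and blood sum of each spermatocyte library was Mrc1 (666, 1419, 3091 and 1114 in libraries 1 to 4), which was not called. The joint model with Insl3, not called either, held 1121 to 1991 of the Leydig sums per spermatid library. Of 6 spermatogonia markers 3 were higher in spermatids (848 to 1950 and 2221 to 4859), and of 4 endothelium markers 2 were higher and 1 lower (382 to 489.8 and 1016 to 1320). Khdrbs1 had 3808, 3421, 4319 and 4985 normalized counts in spermatocytes (libraries 1 to 4) and 651, 625, 854 and 1129 in spermatids (libraries 1 to 4). The count takes in the whole gene, with any part that the deletion leaves, so this level does not check the labels.

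All 5 hyaluronidase models were higher in spermatids than in spermatocytes, and in none did the libraries of the cell types overlap. Models were tested with limma on log2(normalized count + 1), and a call needed both a change of 1 or more on the log2 scale and a p under 0.05 after Benjamini-Hochberg adjustment over 28735 tested models. By that rule 32.5% of all tested models were called higher, and in 34.2% every spermatid library was above every spermatocyte library. The count of 5 of 5 is read against this wide background, and it includes Hyal3, which passed the filter on low values through its spermatid libraries alone. In bulk RNA of sorted fractions, fewer cells that carry an RNA and less of it per cell cannot be told apart.

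Spam1, the main hyaluronidase gene of mammalian sperm, had 469, 738, 513 and 121 normalized counts in spermatocytes (libraries 1 to 4) and 15693, 24854, 25818 and 25332 in spermatids (libraries 1 to 4). Its lowest spermatid library was library 1, and its lowest spermatocyte library was library 4. The mean went from 460 ± 255 to 22924 ± 4837 (SD, n = 4 each), a 49.8-fold ratio of means. On the log2 scale the change was 5.87 ± 0.45 (SE, limma adjusted p = 2.1e-07), and 0.623% of all tested models had a log2 fold change as high or higher. Without spermatocyte libraries 3 and 4 together it was 5.25 and still called.

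Hyal5, the other GPI-anchored hyaluronidase of mouse sperm in the set, had 379, 427, 403 and 90.2 normalized counts in spermatocytes (libraries 1 to 4) and 11150, 13758, 17417 and 17853 in spermatids (libraries 1 to 4). It was low in the same libraries as Spam1, spermatocyte library 4 and spermatid library 1. Low values in spermatid library 1 were not particular to this pair. Hyal1 // Nat6 (8197) and Hyal3 (114) were also lowest there among spermatids, while Hyal2 (342) was highest. The mean was 325 ± 158 for spermatocytes and 15045 ± 3180 for spermatids (SD, n = 4 each), with a log2 fold change of 5.73 ± 0.42 (SE, limma adjusted p = 1.6e-07).

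Both sperm hyaluronidase genes were thus low in spermatocyte library 4 (121 and 90.2 normalized counts), and some cell type markers, picked out after their values were seen, were low there too. Of the spermatid markers, Spaca1 had 198 normalized counts in that library against 625 to 769 in the other spermatocyte libraries and Acrv1 497 against 628 to 778, although the summed level of all 9, 33264, was the highest of the 4. Of the spermatocyte markers, the meiotic chromosome genes Sycp1 (1653 against 12680 to 26690), Sycp3 (3303 against 15595 to 17490) and Hormad1 (1395 against 6447 to 9289) were lowest in it. Piwil1, Hspa2, Ccna1, Ovol2 and Pou5f2 went the other way and were highest in it. The summed level of all 9 spermatocyte markers, 480285, was the highest of the 4 (395436 to 419828 in the others). The part of these differences between libraries in the fold changes was not tested. Without that library the log2 fold changes were 5.32 for Spam1 and 5.20 for Hyal5.

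The joint model Hyal1 // Nat6 had 257, 406, 389 and 350 normalized counts in spermatocytes (libraries 1 to 4) and 8197, 13263, 17015 and 12958 in spermatids (libraries 1 to 4). Unlike Spam1 and Hyal5, it was not low in spermatocyte library 4, and its spread in spermatocytes was small beside its change. The mean went from 351 ± 66.7 to 12858 ± 3614 (SD, n = 4 each), a log2 fold change of 5.17 ± 0.24 (SE, limma adjusted p = 3.2e-09). How much of this RNA is Hyal1 and how much is Nat6 was not tested.

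Hyal3 was close to the counting floor in spermatocytes, with 11, 6, 20 and 2 reads in libraries 1 to 4, or 8.87, 5.89, 22.4 and 2.28 normalized counts. Spermatid libraries 1 to 4 had 114, 188, 216 and 167 normalized counts, so each of them was well above each spermatocyte library. The model passed the filter on low values (10 normalized counts in 4 libraries) through its spermatid libraries, so that it had to differ, and its log2 fold change of 4.30 ± 0.53 (SE, limma adjusted p = 1.2e-05) is given as a description. It fell to 3.41 with a pseudocount of 8 in place of 1. In the 4 spermatid libraries Hyal3 had between 1.27 and 1.42% of the counts of Hyal1 // Nat6, the model it overlaps, and the part of shared reads in its counts was not tested.

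Hyal2, the surface enzyme of somatic cells, changed least. It had 108, 101, 123 and 100 normalized counts in spermatocytes (libraries 1 to 4) and 342, 220, 233 and 272 in spermatids (libraries 1 to 4), the highest of them in spermatid library 1. The mean was 108 ± 10.5 for spermatocytes and 267 ± 55.0 for spermatids (SD, n = 4 each), and the log2 fold change was 1.28 ± 0.24 (SE, limma adjusted p = 4.7e-04). A log2 fold change as high or higher was found in 30.0% of all tested models. With every library scaled to the same total of reads the change was 0.84 (limma adjusted p = 0.021), and after quantile normalization it was 0.89 (limma adjusted p = 0.0045), both below the size needed for a call. Several marker lists given above, with most or some of their markers called higher in spermatids, also had their highest sum in spermatid library 1. These were macrophage and blood (7195), spermatogonia (4859) and peritubular markers (1977), while the endothelium sum was lowest there among spermatids (1016). The part of such cells in the level of Hyal2 was not tested.

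**Figure D1:**
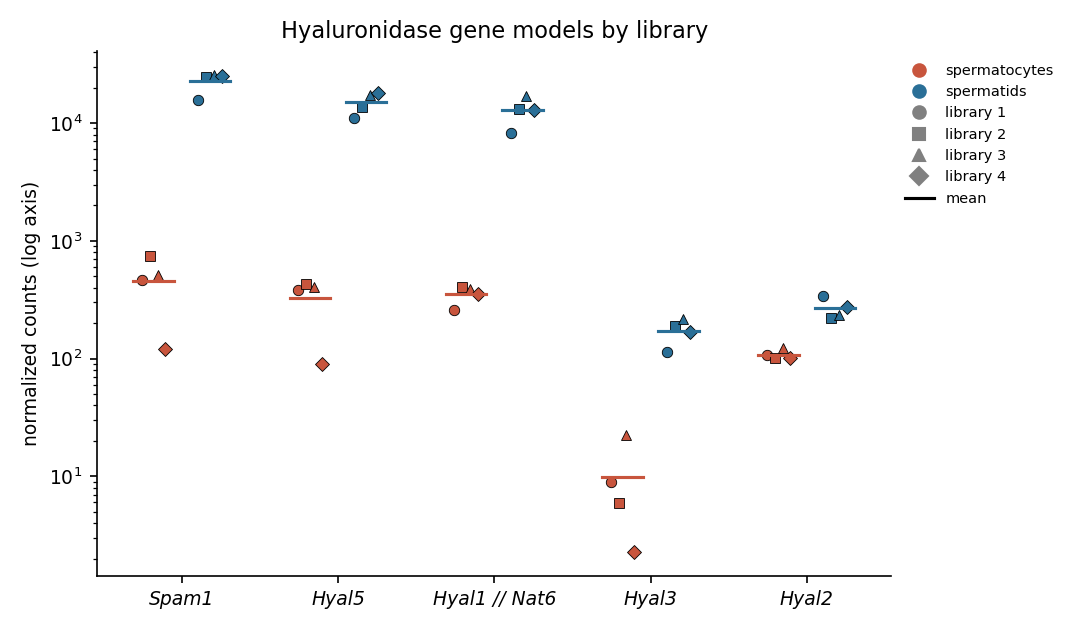
Normalized counts (log axis) of the 5 hyaluronidase models in each of 8 libraries, red for spermatocytes and blue for spermatids, with a bar at each mean of 4. The spermatid points lie above the spermatocyte points for every model, and spermatocyte library 4 (diamonds) is low for Spam1 (121) and Hyal5 (90.2) but not for Hyal1 // Nat6 (350).

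The direction was the same under each of 22 other ways of processing (scaling, pseudocount, filter, tool, GC correction and libraries left out) for all 5 models. The log2 fold change ranged from 5.25 to 6.18 for Spam1, 5.20 to 5.94 for Hyal5, 4.69 to 5.38 for Hyal1 // Nat6, 3.41 to 4.79 for Hyal3 and 0.84 to 1.54 for Hyal2. Hyal2 was the only member whose call was lost, under the 2 scalings named above. These alternatives share the same libraries and are not independent of each other.

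**Figure D2:**
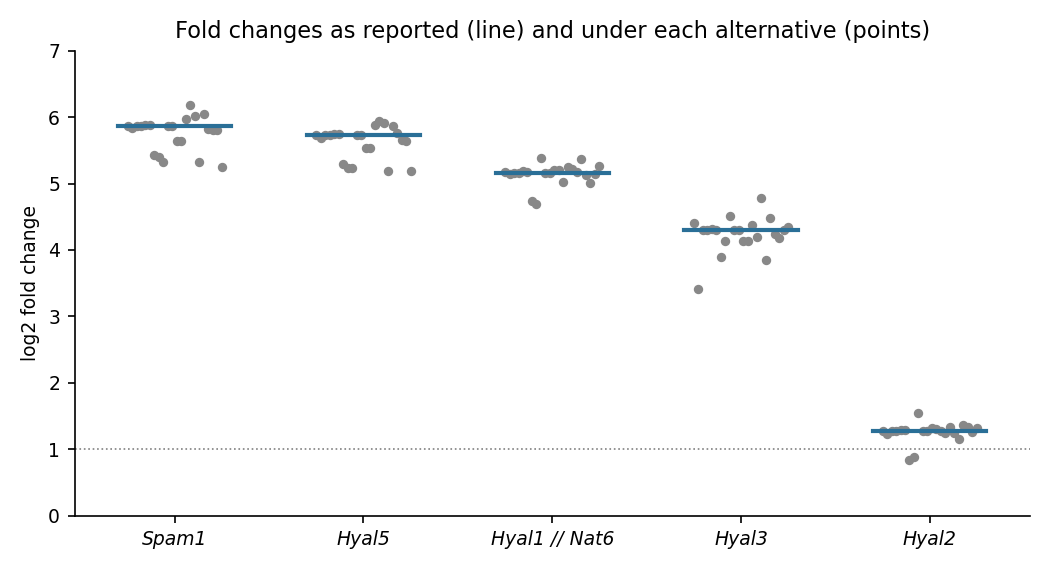
Log2 fold change (spermatids minus spermatocytes) of each hyaluronidase model as reported (blue line) and under each of 22 alternatives (grey points), with the smallest change that was called dotted at 1. Hyal2 is the model that comes below the dotted line, at 0.84 and 0.89, and the low point of Hyal3, at 3.41, is the one with a pseudocount of 8.

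Levels of different genes were compared per kilobase of merged exon (normalized counts per kb), with Hyal6 and Hyal4 added to complete the family of 7. In spermatids Spam1 was highest at 10340 ± 2182 per kb, followed by Hyal5 at 6952 ± 1470 (SD, n = 4). Among 18181 tested models with a known length they stood at percentiles 96.8 and 95.2 in spermatids, and at 61.2 and 56.0 in spermatocytes. Next came Hyal6, at 2583 ± 539 per kb, and Hyal1 // Nat6, at 2566 ± 721, which did not differ beyond their spread. Hyal3 (87.8 ± 22.2 per kb) and Hyal2 (81.0 ± 16.7) did not differ beyond their spread either, and Hyal4 was lowest at 24.4 ± 7.97.

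In spermatocytes the order of the levels per kb was another. Hyal6, a gene of the chromosome 6 group also known as Hyalp1, led with 1761 ± 574 per kb, and Spam1 (208 ± 115), Hyal5 (150 ± 72.8) and Hyal1 // Nat6 (51.3 to 81.1) followed. The ranges of Spam1 and Hyal5 over the 4 spermatocyte libraries overlapped. Hyal2 (32.8 ± 3.18 per kb) and Hyal4 (28.2 ± 8.39) did not differ beyond their spread, and Hyal3 was lowest at 5.06 ± 4.50. The 9 spermatid markers were also found in these libraries, summed 17814 to 33264 each against 501560 to 602742 per spermatid library. The part of spermatid RNA in the levels, percentiles and shares given for spermatocytes was not tested.

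Of the summed level per kb of the 7 models, Hyal6 made up 80.2, 77.3, 63.8 and 88.3% in spermatocytes (libraries 1 to 4) and 10.2 to 13.4% in spermatids. Spam1 and Hyal5 together made up 5.12 to 26.7% during and 74.6 to 78.7% after meiosis, ranges that lie far apart. Spam1 had the larger share of the pair in each of the 8 libraries. The sum itself was 2254 ± 648 per kb for spermatocytes and 22635 ± 4594 for spermatids (SD, n = 4 each), a 10.04-fold ratio. Hyal6 itself had a log2 fold change of 0.60 ± 0.26 (SE, limma adjusted p = 0.0588) and was not called, and with a correction for GC content it was -0.013.

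**Figure D3:**
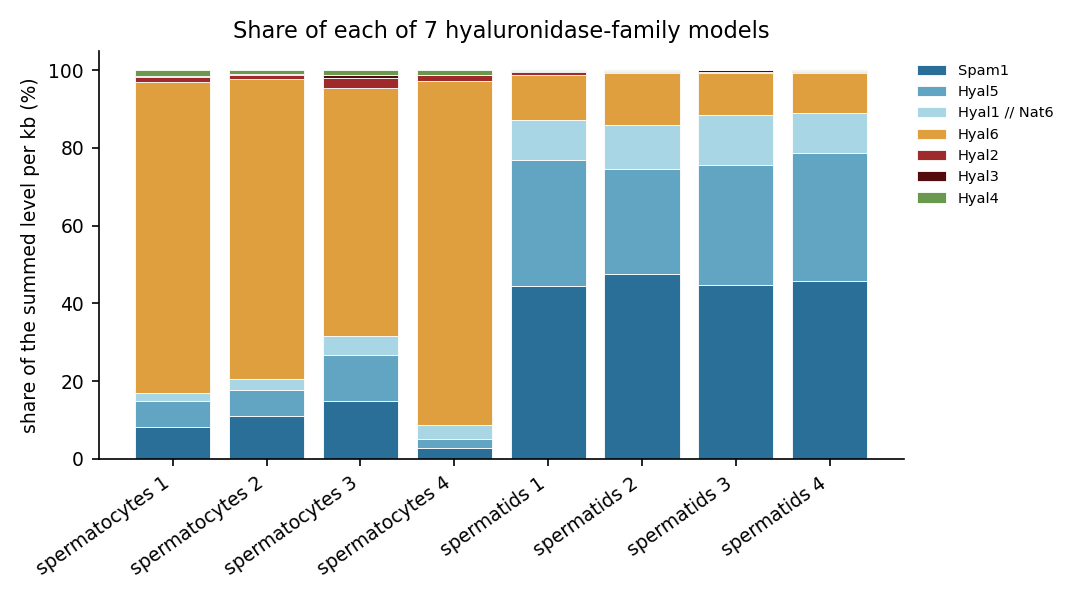
Share (%) of the summed level per kb of 7 hyaluronidase-family models in each of 8 libraries. Hyal6 (orange) takes 63.8 to 88.3% of every spermatocyte bar, and Spam1 with Hyal5 (the darker blues) takes 74.6 to 78.7% of every spermatid bar.

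Whether members changed by different amounts was tested on the ratio of each of the 10 pairs within libraries. In the change of a ratio gene length cancels, and library scaling does too but for the 1 added to each count. The ratios themselves are not per kb and do not compare levels. The test was an exact two-sided permutation test over the 4 and 4 libraries, whose smallest p is 0.0286, adjusted over the 10 pairs. Spam1 and Hyal5 kept close to each other: the ratio of Spam1 to Hyal5 was 1.24, 1.73, 1.27 and 1.34 in spermatocytes (libraries 1 to 4) and 1.41, 1.81, 1.48 and 1.42 in spermatids (libraries 1 to 4). These values overlapped, and the mean log2 ratio differed by 0.14 between cell types (exact permutation p = 0.371, adjusted p = 0.413), although the mean counts of Spam1 and Hyal5 rose 49.8-fold and 46.3-fold.

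The ratio of Hyal1 // Nat6 to Hyal5 was 0.68, 0.95, 0.97 and 3.85 in spermatocytes (libraries 1 to 4) and 0.74, 0.96, 0.98 and 0.73 in spermatids (libraries 1 to 4). Only spermatocyte library 4, where Hyal5 was low, stood apart, and the ratio did not pass the test (exact permutation adjusted p = 0.6). Nor did that of Spam1 to Hyal1 // Nat6 (log2 difference 0.70, exact permutation adjusted p = 0.245) or of Hyal1 // Nat6 to Hyal3 (0.86, exact permutation adjusted p = 0.393).

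The remaining 6 pairs had no overlap between the cell types and the smallest exact permutation p, which was 0.0476 after adjustment over the 10 pairs. Of these, 3 hold Hyal3, which passed the filter through its spermatid libraries alone, so their values are given as a description. Over the 6 pairs without Hyal3, a choice made after seeing the data, the 3 pairs with Hyal2 were still at the smallest exact p, but its adjusted value was 0.0571, so their call rests on the pairs of Hyal3. Against Hyal2, the log2 ratio of Spam1 rose by 4.59 and that of Hyal1 // Nat6 by 3.89, while the ratio of Hyal2 to Hyal5 fell by 4.45 and that of Hyal2 to Hyal3 fell by 3.02. The ratio of Spam1 to Hyal2, for example, was 4.31, 7.24, 4.15 and 1.20 in spermatocytes (libraries 1 to 4) and 45.7, 113, 110 and 92.8 in spermatids (libraries 1 to 4). The log2 ratio of Spam1 to Hyal3 rose by 1.57 and that of Hyal3 to Hyal5 fell by 1.43. After GC correction these last differences were 0.82 and -0.73, while the pairs with Hyal2 stayed at 3.79 (Spam1 to Hyal2), 3.84 (Hyal1 // Nat6 to Hyal2), -3.70 (Hyal2 to Hyal5) and -2.97 (Hyal2 to Hyal3). These 4 kept the smallest exact permutation p, 0.0286, but with fewer pairs at it the adjusted p was 0.0714 and no pair passed.

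**Figure D4:**
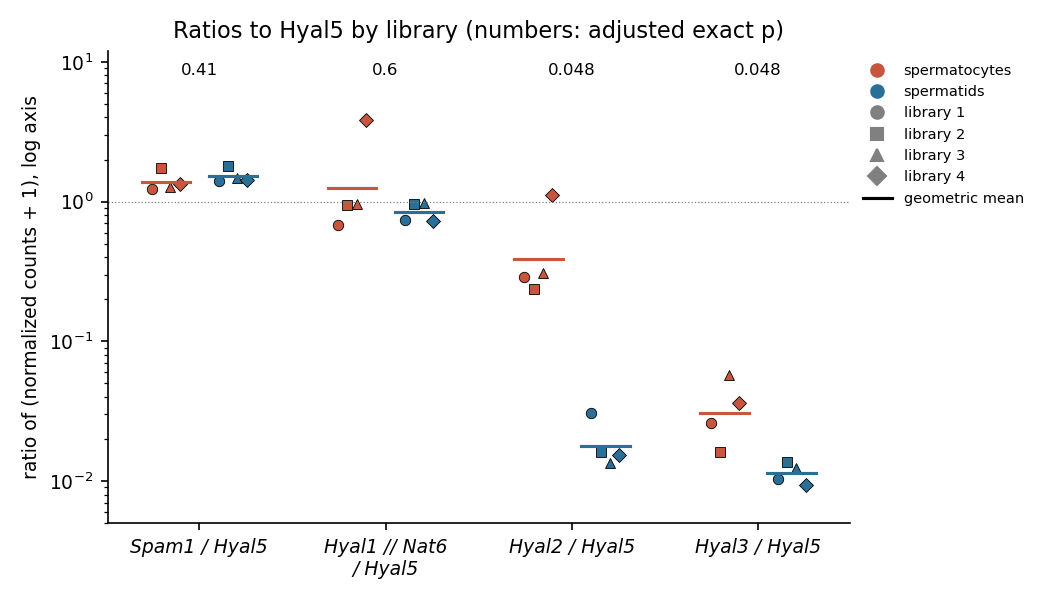
Ratio of each other member to Hyal5 (log axis, of normalized counts + 1) in every library, with a bar at the geometric mean of 4 and the exact p adjusted over the 10 pairs above each ratio. The ratio of Spam1 to Hyal5 stays between 1.24 and 1.81 in all 8 libraries, whereas those of Hyal2 and Hyal3 to Hyal5 are lower in every spermatid library than in any spermatocyte library.

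Within 50 kb of a member there were 16 other models, of which 14 were tested: 2 were called higher, 4 lower and 8 not at all, beside 32.5% and 29.8% of all tested models called higher and lower. On chromosome 6 (mm10) the order is Hyal6 (24733244 to 24745452), Hyal4, Spam1 (24791188 to 24801048) and Hyal5 (24857981 to 24891958), all on the plus strand. Hyal6 and Hyal4 ended 45736 and 23526 bases from Spam1, and neither was called. Hyal4, whose protein cuts chondroitin sulfate rather than hyaluronan, averaged 92.2 ± 27.4 normalized counts during and 79.8 ± 26.1 after meiosis (SD, n = 4 each; limma adjusted p = 0.574).

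On chromosome 9 Hyal2 (107569117 to 107572778) lies 4156 bases before Hyal1 // Nat6 (107576935 to 107584050), which overlaps Hyal3 (107581296 to 107587359) over 2755 bases. Downstream of Hyal3, Ifrd2 rose from 109 ± 47.3 to 544 ± 81.6 normalized counts (log2 fold change 2.39 ± 0.31 SE, limma adjusted p = 2.1e-05). Sema3b, the gene of a secreted semaphorin, rose from 16.9 ± 9.32 to 373 ± 19.1 (4.60 ± 0.44 SE, limma adjusted p = 1.5e-06). On the side of Hyal2 the called neighbours fell. Zmynd10, needed for assembling the dynein arms of cilia, fell by 1.83 on the log2 scale, the tumour suppressor gene Rassf1 fell by 2.67 and a model with no symbol, 699 bases from Hyal2, fell by 2.86. A further model with no symbol, 43417 bases beyond Hyal3, fell by 1.53. Cacna2d2, Tmem115, Cyb561d2, Nprl2, Tusc2 and Gnai2 were not called, with log2 fold changes between -0.87 and 0.50, of which Tmem115 and Cacna2d2 passed the size needed for a lower call under equal total reads (-1.31 and -1.23), after quantile normalization (-1.31 and -1.14) and without spermatocyte library 3 (-1.09 and -1.03). Tmem115 also did so without spermatocyte libraries 3 and 4 (-1.08).

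**Figure D5:**
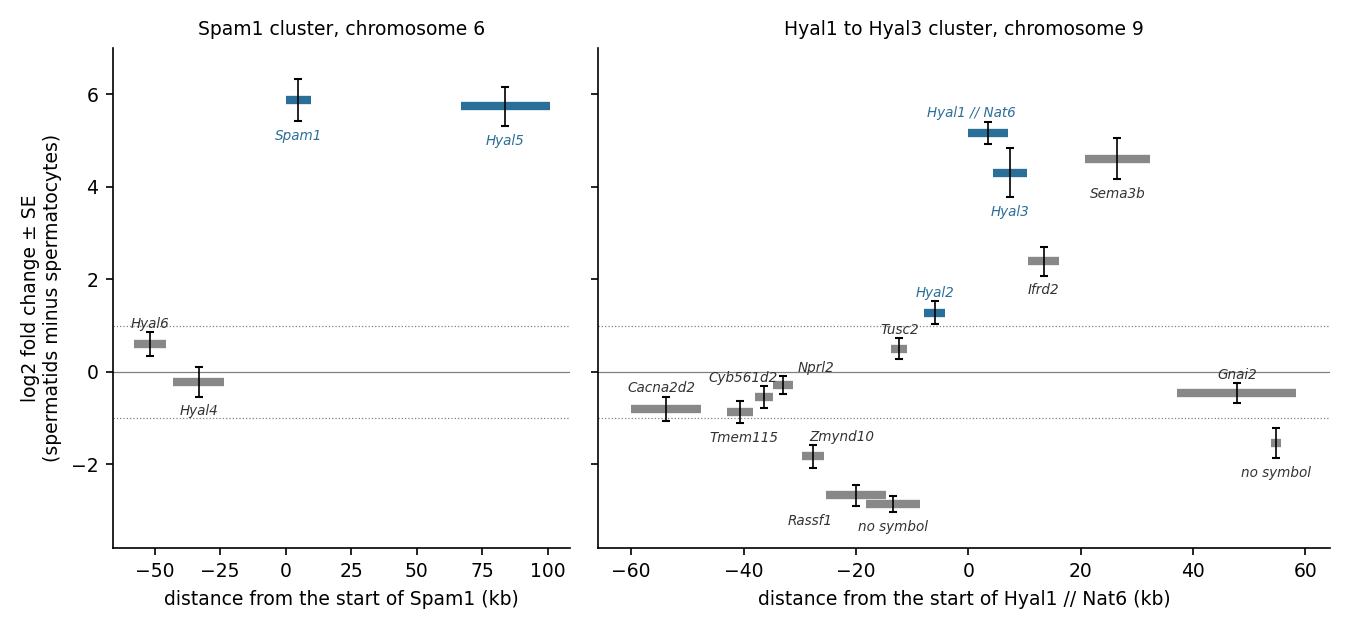
Log2 fold change ± SE of the hyaluronidase models (blue) and of tested models within 50 kb (grey), drawn at their distance from the start of Spam1 (left) or Hyal1 // Nat6 (right), with the size needed for a call dotted and the far part of Cacna2d2 left out. Spam1 and Hyal5 stand near 5.87 and 5.73 while Hyal6 and Hyal4 lie below the dotted line at 1. Hyal2 (1.28) has Hyal1 // Nat6 (5.17) on one side. On its other side the called neighbours fell, and others, such as Tusc2 (0.50), were not called.

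Other genes that make, bind or break down hyaluronan, and those of GPI anchors and the acrosome, were described by fixed lists holding 71 tested models, of which 31 were called higher and 12 lower (32.5% and 29.8% of all tested models were), with a median log2 fold change of 0.64 against -0.01 over all tested models. Of the hyaluronan synthases, Has3 was the only gene tested, at 590 ± 158 counts for spermatocytes and 603 ± 162 for spermatids (SD, n = 4 each; limma adjusted p = 0.918). Has1 (10.7 ± 6.48 and 12.1 ± 11.0) and Has2 (0 reads in every spermatocyte library and 0.778 ± 1.03 normalized counts in spermatids) were under the filter. Of 4 other degrading models tested, the gene of the hyaluronan-depolymerising protein CEMIP, listed as 9930013L23Rik, rose from 155 ± 29.0 to 5448 ± 593 (log2 fold change 5.14 ± 0.20 SE, limma adjusted p = 1.1e-09). Hyal6, Hyal4 and Tmem2 (the symbol listed for Cemip2; log2 fold change 0.95, limma adjusted p = 0.0205) were not called. The 1 higher call became 2 in 5 alternatives, among them those without spermatocyte library 3, spermatid library 2 or spermatid library 3.

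Among 18 tested genes of hyaluronan-binding proteins 10 were called higher and 3 lower (median log2 fold change 1.34), with 1 lower when spermatid library 3, or spermatocyte libraries 3 and 4, were left out. Of all tested models, 32.5% were called higher and 29.8% lower. Ncan, for the matrix proteoglycan neurocan, rose from 192 ± 41.3 to 5471 ± 854 normalized counts (4.84 on the log2 scale, limma adjusted p = 2.5e-09). Stab1, for a scavenger receptor that macrophages carry, rose from 29.4 ± 7.997 to 580 ± 254 (4.196, limma adjusted p = 5.6e-07), beside the higher macrophage markers, whose part was not tested. Ambp, the precursor of bikunin, is among the 10 called higher, with 1.65 ± 1.12 counts in spermatocytes, under the counting floor, and 47.9 ± 16.8 in spermatids. It passed the filter through its spermatid libraries alone, so that it had to differ, and its values are given as a description. Layn (8.89 ± 2.48 and 22.2 ± 5.90) and Itih4 (4.68 ± 6.63 and 12.5 ± 4.94) also needed their spermatid libraries to pass. Both are among the 10, so that count leans in part on the filter. Hapln1, a link protein between hyaluronan and proteoglycans, was the largest fall (38.4 ± 25.9 to 13.01 ± 10.5, limma adjusted p = 0.0459), and its call was lost in 9 of the alternatives. It needed its spermatocyte libraries to pass the filter.

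Among genes of lysosomal enzymes that break down glycosaminoglycans, values moved in both directions. Gusb, the beta-glucuronidase, which takes single sugars off hyaluronan fragments, rose from 72.1 ± 33.7 to 393 ± 81.8 normalized counts (2.54 on the log2 scale, limma adjusted p = 3.9e-05). Hgsnat fell by 1.83 and the joint model Glb1 // Tmppe by 1.54 on the log2 scale. Hgsnat had 350, 510, 1193 and 655 normalized counts in spermatocytes (libraries 1 to 4), the same order of libraries as the summed Sertoli cell markers (38451, 64579, 188181 and 89086), which were also lower in spermatids and whose part in its fall was not tested.

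Spam1 and Hyal5 encode GPI-anchored proteins, and 5 of 11 other genes of GPI-anchored germ cell surface proteins were called higher and 2 lower (median log2 fold change 0.99). The shares over all tested models were 32.5% and 29.8%. Spaca4, a sperm membrane protein, rose from 227 ± 38.5 to 8674 ± 1009 normalized counts (5.26, limma adjusted p = 9.5e-10), the protease gene Prss55 by 4.75 and the complement regulator gene Cd59b by 3.53 on the log2 scale, while the joint model Prnd // Prnp fell by 2.93. In spermatocytes Prnd // Prnp had 135, 264, 1656 and 506 normalized counts (libraries 1 to 4), again in the order of the Sertoli cell markers, and their part in its fall was not tested. Of 10 genes that attach, trim or release the anchor, 3 were called higher and 3 lower (median -0.34), shares near those of all tested models. Pgap1 and Pgap2, which remodel the anchor after attachment, rose by 3.78 and 1.68, and Mppe1 by 1.20 with its call lost in 3 alternatives. Pigs and Pigu, subunits of the transamidase that attaches the anchor, fell by 1.64 and 1.16 and Gpld1, a phospholipase that cleaves it, by 2.35.

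Of 15 genes of the acrosome, the vesicle over the sperm nucleus in which SPAM1 is also found, 10 were called higher and 1 lower (median log2 fold change 1.35). Among all tested models the shares were 32.5% and 29.8%. Spaca1 (5.69), Spaca7 (5.52) and Zp3r (5.45) changed by about as much as Spam1 (5.87) and Hyal5 (5.73), though these differences were not tested. Gopc, a Golgi protein needed to build the acrosome, fell from 3243 ± 246 to 468 ± 57.1 normalized counts (fell by 2.80 on the log2 scale, limma adjusted p = 3.0e-08).

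The models whose log2 values ran most nearly parallel to each member over the 8 libraries were named as a description. For Spam1 they were Zfp458, Fam228b and Tsga13, with Pearson r between 0.9991 and 0.9995. Each of these had less in spermatocytes with a wide spread, for example 118 ± 63.0 normalized counts of Tsga13, and 5207 ± 950 in spermatids. For Hyal5 they were Etf1, Adam29 and Ms4a5 (0.9994 to 0.9997), for Hyal1 // Nat6 Hist1h4a, Amy2a4 and Theg (0.9996 to 0.9998), for Hyal2 Usp3, Tex11 and Atad5 (0.9914 to 0.9969) and for Hyal3 Zfp715, Rsl1 and Antxr1 (0.9923 to 0.9945). The 8 points share the contrast of cell types, and of 9082 models compared with Spam1, 2259 had an r of at least 0.9, so a high r sets none of these genes apart.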

How the data were processed

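RNA was sequenced from 4 spermatocyte and 4 spermatid libraries. Per the labels' protocols, RNA was treated with DNase and libraries were made with a stranded kit for polyadenylated RNA. The deposited signal is, per its name and the file headers, a DESeq-normalized value per gene model on mm10, and STAR 2.4.0, SAMtools, Picard, FastQC and DESeq are named in the submitters' processing notes. The counting tool and strand setting were not given in the sources used here, so reads of overlapping or antisense genes may be mixed. Another 8 value columns of the table were left out. Deposited values above 0 were whole multiples of a step in each library (100% of them to within 10% of the step), which gave back whole reads. Same-group libraries differed by more than sampling noise (chi-square per degree of freedom at least 11.2), so none was counted as a library deposited again, which does not show that they came from separate animals.

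Models that reached 10 normalized counts in 4 or more libraries (28735) were compared with limma 3.58.1 in R 4.3.3, with trend and robust moderation, on log2(value + 1). This scale understates the change of low genes. Calls, as defined in the text, gave 9333 higher and 8563 lower models. On the recovered reads edgeR 4.0.16 (quasi-likelihood) called 9272 higher and 8634 lower and DESeq2 1.42.0 called 9218 and 8671. The test was also run on simulated data with known changes in a small part of the genes. In the real data 62.3% of the tested models were called in either direction, so that run does not check the calls given here. Lengths are merged exons of GENCODE M21; promoter letters come from RefSeq, GRCm38.p6. The GC correction fitted a spline with 5 degrees of freedom per library over 18171 models with a known GC content. The members and lists were chosen with earlier results of these data known. Named genes are the members, Khdrbs1, models within 50 kb of a member, every called gene of a list with 6 or fewer calls (otherwise the 3 largest changes and the largest in the other direction) and, for each member, the 3 models with a symbol and at least 500 mean counts whose values correlate best with it. Of the lysosomal list, part of the members and the counts over the list are not reported here. The counting floor of 3 reads covers counting error only. Values after ± are the SD over libraries or, where marked, the SE of limma. Alternatives were other pseudocounts, filters, scalings, tools and libraries left out.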

Additional observations from a re-analysis of the deposited data

Results flagged for a closer look

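In 5 of 88 groups of 4 libraries a single library lay far from the other 3, and chance gives about 1 such group in 20. Spam1 was lowest in spermatid library 1, with 15693 normalized counts against 24854 to 25818 in the other spermatid libraries. Hyal5 was lowest in spermatocyte library 4, with 90.2 against 379 to 427. In the same library Pgap1, a gene of GPI anchor remodelling, was lowest at 12.6 against 62.6 to 72.5, and Cd59b, of a GPI-anchored complement regulator, was highest at 73.1 against 51.0 to 52.4. Gpld1, the phospholipase that cleaves GPI anchors, was highest in spermatid library 1 at 249.9 against 190.5 to 193.4.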

How the results depend on the processing

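Of 22 alternatives, Spam1, Hyal5, Hyal1 // Nat6 and Hyal3 kept their call in all and Hyal2 in 20, with 0.84 under equal total reads and 0.89 under quantile normalization; those scalings moved the median log2 fold change of all models from -0.01 to -0.44 and -0.36. The number of models called lower, 8563, was 14333 with no filter, 5470 with a filter of 50, 3866 after GC correction, 3828 over the models with a known GC content uncorrected (added after seeing the data) and 5484 without spermatocyte libraries 3 and 4. Higher against lower calls, 9333 to 8563, were 6482 to 3866 with GC correction and 9335 to 5484 without libraries 3 and 4, over 18171 and 25356 tested models. The 6 passing pairs became 0 with GC correction (smallest adjusted p 0.0714), where 4 pairs in place of 6 were at the smallest exact p and those 4, all with Hyal2, kept differences of 2.97 to 3.84 in size. They became 0 over the 6 pairs without Hyal3 (0.0571, added after seeing the data), 0 without libraries 3 and 4 (0.19) and 0 to 0 with each library left out, where the exact test cannot reach the threshold with fewer samples. Reversed values were those of Hyal6 (-0.013, GC correction), the Spam1 to Hyal1 // Nat6 ratio (-0.053, GC correction; -0.0094 without libraries 3 and 4) and the Hyal1 // Nat6 to Hyal5 ratio (0.14 and 0.066), and their cause was not tested. Leaving out single libraries gave 5829 to 8670 lower models, 5.32 to 6.18 for Spam1 and 1.15 to 1.36 for Hyal2. GPI anchor genes called lower were 5 in place of 3 under equal total reads and quantile normalization. No paired analysis was possible because the labels give no replicate numbers; the library numbers used here follow accession order and only name libraries.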

Other observations

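The proteins that cross-link hyaluronan in the cumulus matrix include the heavy chains of inter-alpha-trypsin inhibitor, whose genes were singled out here after their values were seen. Itih5 had 94.7 ± 22.8 normalized counts during and 513 ± 90.3 after meiosis (SD, n = 4 each; higher by 2.44 ± 0.25 SE on the log2 scale, limma adjusted p = 2.9e-06) and Itih3 rose from 38.4 ± 4.26 to 111 ± 33.2 (1.45 ± 0.32 SE, limma adjusted p = 0.00125). Itih2 went the other way, from 272 ± 70.1 to 129 ± 31.4 (fell by 1.07 on the log2 scale, limma adjusted p = 0.00471). Itih4, with 4.68 ± 6.63 counts in spermatocytes and 12.5 ± 4.94 in spermatids, lay near the counting floor, and Itih1 was under the filter.

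Other hyaluronan-binding genes also moved in both directions and were likewise chosen after their values were seen. Habp4, an intracellular hyaluronan-binding protein, rose from 1196 ± 278 to 16943 ± 3176 normalized counts (3.83 ± 0.21 SE, limma adjusted p = 1.3e-08), the most abundant gene of that list in spermatids. Acan, for the cartilage proteoglycan aggrecan, rose from 21.2 ± 15.5 to 104 ± 34.5 (2.43, limma adjusted p = 4.9e-04), whereas Vcan, for versican, fell from 87.2 ± 20.96 to 40.7 ± 13.5 (fell by 1.12 on the log2 scale, limma adjusted p = 0.0116).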
